A study of Mus musculus with 10 samples.

Results

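The genes described are 9 transcription factor genes of neuronal identity, Myt1, Myt1l, St18, Nr2f1, Nr2f2, Bcl11a, Bcl11b, Zbtb18 and Tbr1, out of 21900 protein-coding genes in the RefSeq annotation of mm10. The set was chosen by the covered length of H3K4me3 peaks at these genes and named for broad domains, so breadth is given below as a description. The measure for a gene is the number of base pairs covered by peaks in all union regions (peaks of any of 8 libraries, joined where they overlap or touch) that touch the gene or lie within 5 kb of it. The union region with the most covered bases on average is called the widest region of the gene.

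The study mapped H3K4me3, trimethylated lysine 4 of histone H3, by chromatin immunoprecipitation and sequencing in hippocampal area CA1 of male mice aged 3 months. The nuclei were sorted for NeuN, a protein of neuronal nuclei. The 4 transgenic libraries come from CamkdeltaC transgenic mice, which carry a transgene for the delta C form of calcium/calmodulin-dependent kinase II. The 4 control libraries are labelled wildtype and come from littermates. The promoter that drives the transgene is not given in the sources used here, and transgene level was not measured in these files. The protocol text describes vorinostat and vehicle in drinking water, but no library used here carries a drug label. A further 2 samples, titled as inputs and given IgG as their antibody, were not analysed here. The letter codes of the sample descriptions are not the ones the peak lists are named with, while their group names match. No label says that libraries came from separate animals, so every p-value below measures the spread between these libraries, which may be technical. The sorted nuclei hold several kinds of neuron, so a change in the mix of nuclei and a change of the mark within nuclei cannot be told apart.

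H3K4me3 sits mainly at the starts of active or poised genes, and in a given cell type the genes that set its identity often carry the mark over several kilobases in place of a narrow peak. The 9 genes encode DNA-binding proteins of 5 families. Myt1, Myt1l and St18 are zinc finger factors of the MYT1 family, of which Myt1l is known for holding non-neuronal programmes in check. Nr2f1 and Nr2f2, also called COUP-TFI and COUP-TFII, are orphan nuclear receptors that pattern the cortex and mark interneuron groups. Bcl11a and Bcl11b (Ctip2) are zinc finger proteins that associate with chromatin remodelling complexes. Zbtb18 (RP58) is a BTB zinc finger repressor, and Tbr1 is a T-box factor, both of glutamatergic neurons.

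The promoter sequences shown here are those in which coverage by the mark and the letters of the window can be set side by side. They are RefSeq windows of GRCm38.p6, which shares its coordinates with mm10, and run from 250 bases before to 50 bases after an annotated transcript start, read in the direction of transcription. RefSeq windows were found for 8 of the 9 genes, 19 windows in all. Capitals mark CG dinucleotides, the sites of vertebrate DNA methylation. The pair from Zbtb18 and the pair from Myt1 each contrast a window without any peak and a window inside the widest region of the gene. The last 3 are windows partly or wholly inside a region.
Zbtb18 start window (chr1:177442101-177442400, plus strand): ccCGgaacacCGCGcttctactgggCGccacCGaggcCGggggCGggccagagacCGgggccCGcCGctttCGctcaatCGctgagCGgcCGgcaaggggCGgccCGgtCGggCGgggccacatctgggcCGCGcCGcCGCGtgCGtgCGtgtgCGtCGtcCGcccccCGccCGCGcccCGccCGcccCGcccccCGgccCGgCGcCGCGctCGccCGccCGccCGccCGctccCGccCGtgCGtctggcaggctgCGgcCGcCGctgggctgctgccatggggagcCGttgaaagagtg
Zbtb18 inner window (chr1:177444403-177444702, plus strand): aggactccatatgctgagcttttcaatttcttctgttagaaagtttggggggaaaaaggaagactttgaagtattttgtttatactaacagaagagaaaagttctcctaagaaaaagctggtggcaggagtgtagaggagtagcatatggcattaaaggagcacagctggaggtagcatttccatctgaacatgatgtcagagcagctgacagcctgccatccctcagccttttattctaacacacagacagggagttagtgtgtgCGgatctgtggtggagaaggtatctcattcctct
Myt1 first window (chr2:181763082-181763381, plus strand): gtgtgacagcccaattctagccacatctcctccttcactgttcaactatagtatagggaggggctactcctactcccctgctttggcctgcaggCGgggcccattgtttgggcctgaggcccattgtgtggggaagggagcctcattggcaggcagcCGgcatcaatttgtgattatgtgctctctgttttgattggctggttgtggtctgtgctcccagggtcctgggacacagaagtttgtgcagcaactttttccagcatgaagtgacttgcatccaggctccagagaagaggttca
Myt1 inner window (chr2:181766779-181767078, plus strand): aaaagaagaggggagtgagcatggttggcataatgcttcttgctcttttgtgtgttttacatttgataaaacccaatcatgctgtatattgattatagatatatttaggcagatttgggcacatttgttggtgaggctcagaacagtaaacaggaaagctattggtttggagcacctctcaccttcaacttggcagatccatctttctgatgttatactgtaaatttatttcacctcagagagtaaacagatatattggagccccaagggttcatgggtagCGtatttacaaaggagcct
Nr2f2 start window (chr7:70366697-70366996, minus strand): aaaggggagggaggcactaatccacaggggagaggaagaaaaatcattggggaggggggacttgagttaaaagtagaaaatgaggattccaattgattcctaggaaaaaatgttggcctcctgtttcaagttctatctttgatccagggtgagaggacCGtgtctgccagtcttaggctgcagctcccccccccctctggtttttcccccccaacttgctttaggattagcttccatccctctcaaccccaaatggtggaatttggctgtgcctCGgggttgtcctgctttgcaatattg
Nr2f1 start window (chr13:78198824-78199123, minus strand): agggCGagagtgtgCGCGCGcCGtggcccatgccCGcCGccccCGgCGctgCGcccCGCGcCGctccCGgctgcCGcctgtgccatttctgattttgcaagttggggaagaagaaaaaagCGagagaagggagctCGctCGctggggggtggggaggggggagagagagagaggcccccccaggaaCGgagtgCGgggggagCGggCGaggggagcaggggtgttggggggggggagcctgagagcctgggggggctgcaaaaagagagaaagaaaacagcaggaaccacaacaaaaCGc
Bcl11a window (chr11:24080445-24080744, plus strand): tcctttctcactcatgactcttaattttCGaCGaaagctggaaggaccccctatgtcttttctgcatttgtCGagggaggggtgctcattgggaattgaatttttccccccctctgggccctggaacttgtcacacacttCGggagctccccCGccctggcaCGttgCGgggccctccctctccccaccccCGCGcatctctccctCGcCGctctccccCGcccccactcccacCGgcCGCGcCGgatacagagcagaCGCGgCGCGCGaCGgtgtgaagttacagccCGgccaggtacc

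Each of 8 libraries left the Zbtb18 start window free of peaks, although peaks lay on both sides of it. It holds 51 CG dinucleotides and is 81.7% G or C. The uncovered stretch was wider than the window in every library, from 381 bp in transgenic replicate 4 to 1012 bp in transgenic replicate 1. The nearest peak before the window ended 46 to 220 bp away. The nearest peak after it began 9, 66 and 103 bp away in transgenic replicate 4, control replicate 4 and transgenic replicate 3, and 467 to 512 bp away in the other 5 libraries. The inner Zbtb18 window was wholly covered in all 8 libraries and holds 1 CG. Among 21263 windows of protein-coding genes, 7422 (34.9%) had no covered base in any library. Only 5 of the 21263 (0.0235%) also had a peak within 1000 bp on both sides in all 8 libraries, a distance chosen after the data were seen. These windows belong to Zbtb18, Vkorc1l1, Samd4b, Duxf3 and Rnf180, and those of Vkorc1l1 and Samd4b hold 50 and 47 CG. Most windows this rich in CG did have some coverage: of 191 coding windows with at least 51 CG, 73 (38.2%) were covered in all 8 libraries and 5 (2.62%) in none. How well reads from such GC-rich sequence are recovered was not tested.

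Myt1 also had an uncovered first window and a covered inner window, both with few CG. Its first annotated window had no covered base in any library and holds 2 CG. The nearest regions lay 45679 and 2911 bp from that window, so it was not closely flanked as the Zbtb18 start window was. A window that begins 3447 bp beyond the annotated start was wholly covered in all 8 libraries and holds 1 CG. A window deeper in the gene, with 1 CG, was uncovered in all 8 as well. By comparison the median was 21 CG for coding windows covered in all 8 libraries and 3 for those covered in none. The covered windows of Myt1 and Zbtb18 printed above therefore held fewer CG than the lower quartile of 14 among covered windows. The start window of Nr2f1 and the window of Bcl11a hold 23 CG each. The Nr2f1 start window was covered over at least 282 of its 300 bases in every library, and the Bcl11a window over all of them. The 5 windows of Myt1l and the single windows of Bcl11b and Tbr1 were wholly covered in all 8 libraries too.

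Short letter strings that the encoded proteins or their families are known to bind were searched on both strands of the 19 windows, as a description. AAGTTT, the MYT1 family core, was found in 7 windows, of Myt1, Nr2f1 and Zbtb18, and in 14.4% of all 32851 windows. The Zbtb18 windows overlap each other in part and so share letters. ACATCTG, the ZBTB18 string, was found in 2 windows, of Zbtb18, and in 4.43% of all windows. AGGTCA, read by nuclear receptors, was found in 1 window, of Myt1l, and in 16.3% of all. TGACCA, read by BCL11A, was found in 2 windows, of Nr2f1 and Tbr1, and in 13.6% of all. TGACCA and the reverse complement of AGGTCA share 5 letters. The T-box string AGGTGTGA was found in none of the 19 windows and in 1.275% of all.

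**Figure D1:**
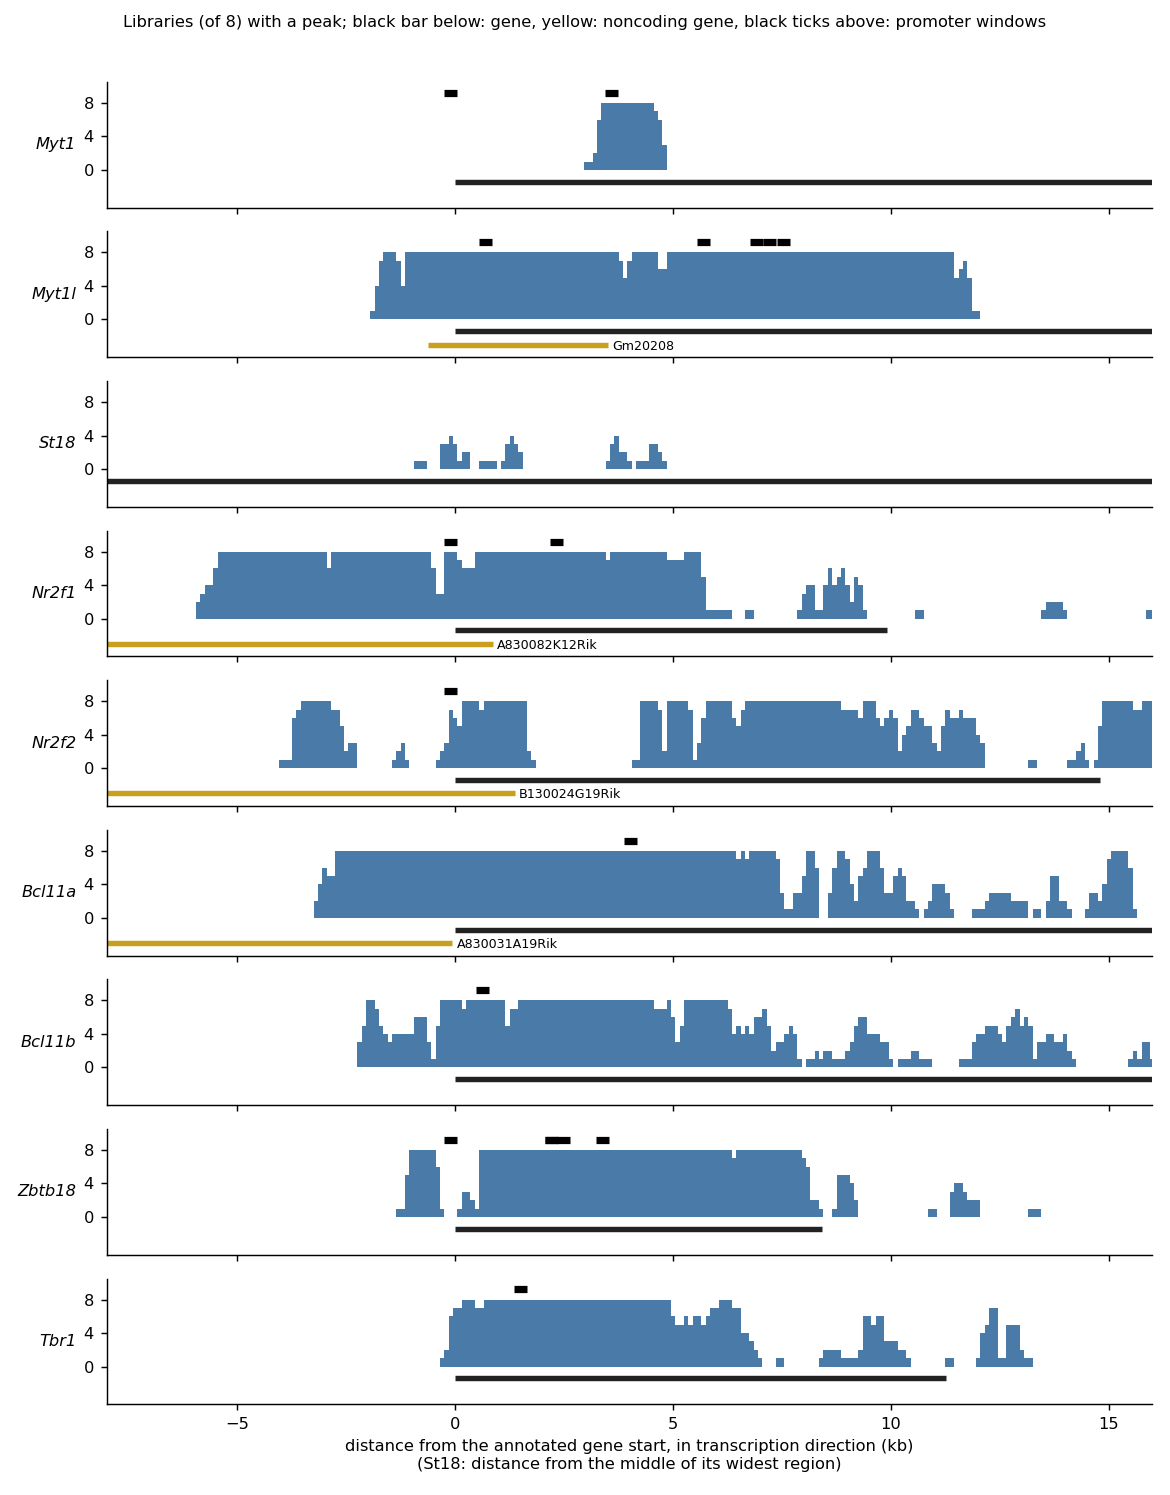
Number of the 8 libraries with a peak (vertical axis, 0 to 8) against distance in kb from the annotated start of each gene, in the direction of transcription, except for St18, where distance is counted from the middle of its widest region and no strand was used. Black bars are the gene, yellow bars noncoding genes with an end near the domain, and black ticks the promoter windows. The Zbtb18 start window falls in a gap between peaks. The Myt1 peaks begin 2960 to 3319 bp inside the gene, depending on the library, and no St18 bin reaches 8 libraries.

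Of the 9 genes, which were chosen by this same measure, 7 had a widest region of at least 4000 bp. Averaged over 8 libraries, the widest regions of Myt1l, Nr2f1, Bcl11a, Zbtb18, Bcl11b, Nr2f2 and Tbr1 were covered over between 6498 and 13342 bp. Among 17747 coding genes with a region, 942 (5.31%) had a widest region of at least 4000 bp and 14 one of at least 10000 bp, and the median was 1662 bp. Myt1l ranked 3, Nr2f1 ranked 5 and Bcl11a ranked 11 among them. Zbtb18, Bcl11b, Nr2f2 and Tbr1 ranked 46, 58, 115 and 119. Myt1, at 1524 bp, and St18, at 237 bp, had no broad domain, with ranks of 9950 and 15674. In breadth alone, the coding gene closest to Bcl11a was Grin2a (10457 bp). Zfp979 (13290 bp) was closest to Myt1l, Lrrc4 (7752 bp) to Zbtb18, Flrt2 (7384 bp) to Bcl11b, Adrb1 (6601 bp) to Nr2f2 and Crmp1 (6481 bp) to Tbr1. The closest to Myt1 and St18 were 4933424G06Rik and Naip6.

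**Figure D2:**
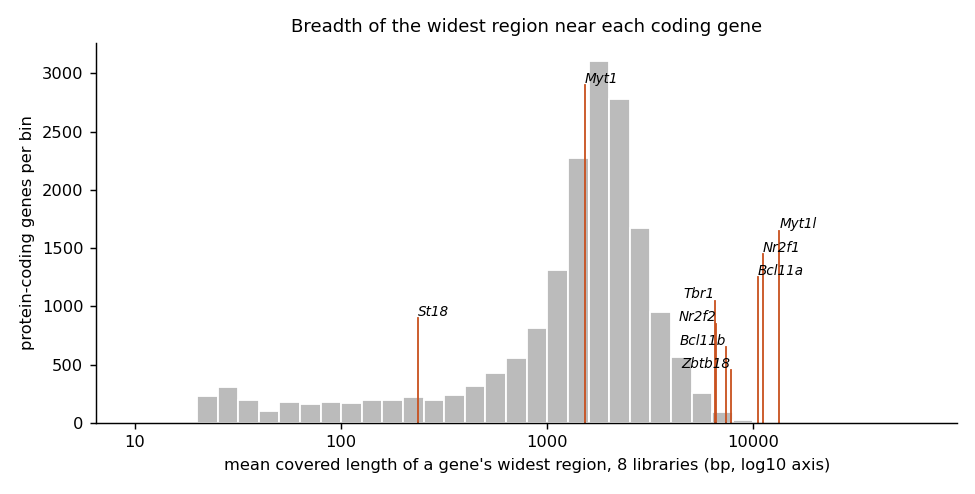
Histogram of the mean covered length of the widest region of each coding gene over 8 libraries (horizontal axis in bp, log10 scale) with the number of genes per bin on the vertical axis. Vertical lines mark the 9 genes and their heights carry no value; 7 lie to the right at 6498 bp or more, Myt1 lies at 1524 bp and St18 at 237 bp.

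The libraries differed in how much they held. Between 51903 and 66811 peaks made up each control library and between 60388 and 102285 each transgenic one, and the covered genome came to 37.5 to 43.1 Mb in controls and 45.2 to 57.7 Mb in transgenic libraries. Covered lengths were therefore also compared after centring each library on its median, which took 0.04 log2 units off the genotype difference of a gene and 0.105 off that of a region. The files give no read counts, so depth is unknown. Widest regions were covered in all 8 libraries for 8 of 8 neuronal and 6 of 6 CA1 pyramidal marker genes. The same held for 4 of 4 dentate gyrus markers, 3 of 4 for CA3, 8 of 9 for interneurons, 1 of 5 for microglia, 4 of 8 for oligodendrocytes and their precursors, 2 of 4 for endothelium and 2 of 5 for astrocytes. Vip, the astrocyte gene Aldh1l1 and the microglial genes Csf1r, Tmem119 and P2ry12 had no peak. Summed over the interneuron markers, the widest regions came to 11.4 to 13.6 kb in controls and 10.98 to 14.8 kb in transgenic libraries.

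No difference between transgenic and control libraries passed the test at any of the 9 genes. Over all coding genes tested, limma called 0 of 17110 (0%) at an adjusted p under 0.05, and 670 genes were higher and 304 lower at an unadjusted p under 0.05. The log2 differences of the 9 genes, transgenic minus control on the scale log2(covered bp + 100), had a median of 0.014, with 6 above 0 and 3 below. Over all genes tested the median was -0.012, with 45.6% above 0. In 1 of the 9 genes, Zbtb18, all 4 transgenic values lay above all 4 control values, which was so for 3.1% of the genes tested; none lay wholly below, against 0.292%. Quantile normalization turned the counts to 1 gene above 0 and 8 below. For the widest regions alone, all 9 centred differences lay below 0, while 52.6% of all regions tested lay above. Centring took 0.105 log2 units off each of the 9, and without it 6 lay above 0 and 3 below. Most regions tested were narrower than that of Myt1, which ranked 9288 of 72683. The share below 0 among regions of like breadth was not counted.

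**Figure D3:**
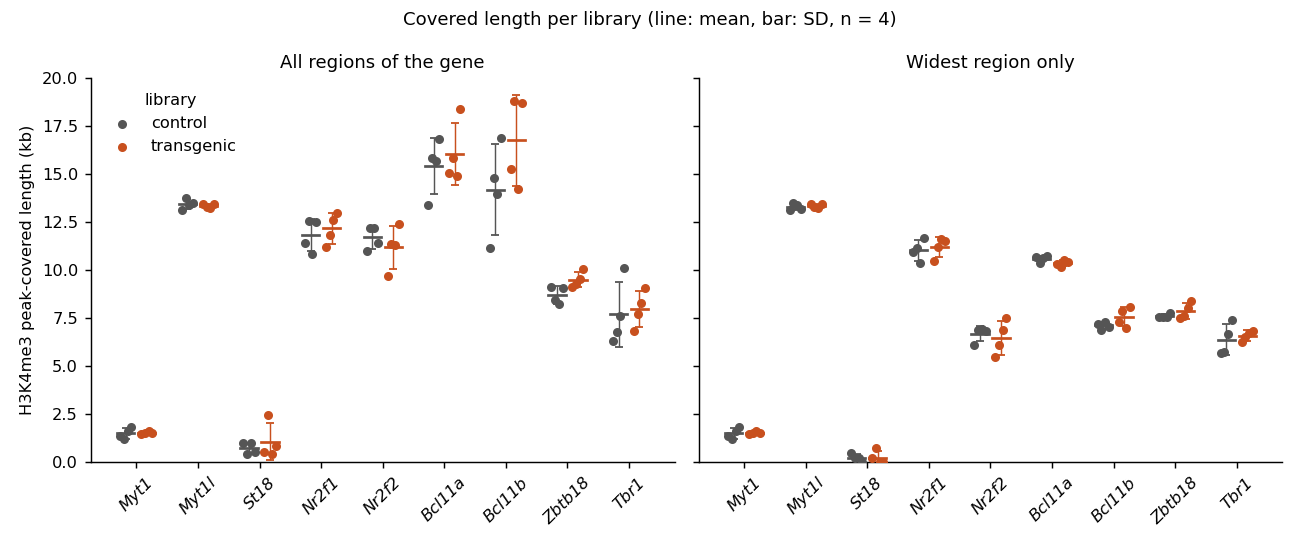
Peak-covered length in kb for each gene, over all its regions (left) and over its widest region (right), with 1 point per library, the mean as a line and the SD as a bar (n = 4 per group). Control and transgenic points overlap for every gene except Zbtb18 on the left, and the points of Myt1l and Bcl11a lie close together on the right.

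Of the MYT1 family, Myt1l had the broad domain. Its widest region, chr12:29525673-29539632, ran from 1917 bp before to 12042 bp beyond the annotated start. The control libraries covered 13153, 13494, 13422 and 13207 bp of it and the transgenic libraries 13463, 13314, 13239 and 13445 bp. The highest and the lowest of these 8 values were both controls, and the groups overlapped. The coefficient of variation (SD over mean) across all 8 libraries was 0.982%, the lowest among the 942 coding genes with a widest region of at least 4000 bp, for which the median was 5.94%. The centred log2 difference was -0.1 (SE 0.027) with an adjusted p of 0.361 in limma. It was 0.005 without centring, so the sign rests on the centring. The peaks that make up the region were less alike than their sum, with 2 to 4 peaks per library and a longest peak of 6619 to 12620 bp. The lncRNA gene Gm20208 lies wholly inside the domain on the opposite strand, with 3513 of its 4145 bp overlapping Myt1l. H3K4me3 coverage has no strand, so the share that belongs to either gene cannot be told apart.

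Myt1, which gave the family its name, had 1 region, at chr2:181766292-181768206, and no peak at its first annotated start 2960 bp away. Controls covered 1369, 1208, 1625 and 1861 bp and transgenic libraries 1478, 1516, 1605 and 1533 bp. The control libraries took both ends of the range, with an SD of 287 bp against 53.2 bp in the transgenic libraries. The log2 difference over the gene was -0.008 (SE 0.108, adjusted p 0.9998 in limma). Between 11.3 and 22.7% of the peaks in a list had a higher fold enrichment than the Myt1 peak, as the authors' lists give it. St18, a relative with a long gene body, had 8 small regions and none in all 8 libraries. Its covered total was 978, 450, 998 and 533 bp in controls and 541, 2480, 444 and 822 bp in transgenic libraries. Transgenic replicate 2 stood alone at the top, and the remaining 7 values lay below 1000 bp. The widest St18 region, chr1:6730026-6730792, lay 242795 bp from the lower end of the gene and had a peak in 5 libraries, with no base covered in all of them.

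Nr2f1, the first of the orphan receptors, was covered to both sides of its start. Its widest region, chr13:78192843-78204799, spanned 5926 bp before and 6030 bp beyond the start. It held 10957, 11169, 10363 and 11701 covered bp in controls and 10492, 11210, 11648 and 11536 bp in transgenic libraries. The groups overlapped, with the lowest and the highest value in controls. The centred log2 difference of the region was -0.083 (SE 0.031, adjusted p 0.645 in limma) and over the whole gene it was 0 (SE 0.053). In 3 libraries the domain was called as 1 unbroken peak, and in transgenic replicate 1 as 7 peaks. The lncRNA gene A830082K12Rik starts inside Nr2f1 on the other strand and shares 857 bp with it, and 6783 bp of it lie in the domain. The part of the domain upstream of Nr2f1 thus also lies over that noncoding gene.

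Nr2f2 differed in layout: its widest region did not hold the annotated start. That region, chr7:70354577-70362664, began 4082 bp inside the gene and held 57.5% of the covered bases of the gene, with 50.1% of its own bases covered in all 8 libraries. Its values were 6108, 6913, 6939 and 6842 bp in controls and 5467, 6090, 6870 and 7504 bp in transgenic libraries. Both the lowest and the highest value were transgenic, and the adjusted p was 0.702 in limma at a log2 difference of -0.16 (SE 0.086). The start of the gene lay in a separate region, chr7:70364863-70367165, from 419 bp before to 1883 bp beyond it. This region was covered over 2053, 1833, 2026 and 1955 bp in controls and over 1615, 1713, 1580 and 1788 bp in transgenic libraries. Every transgenic value was below every control value, at 1674 ± 94.6 against 1967 ± 98.3 bp (SD, n = 4 each), and the exact two-sided permutation p was 0.02857, the smallest that 4 against 4 allows. It was picked out after its values were seen, among 77 regions at the 9 genes, and over all regions tested 0.169% had all transgenic values below all controls. The test across 72683 regions, of which limma called 35 (0.0482%), did not call it: log2 difference -0.326 (SE 0.096), adjusted p 0.368, and -0.221 without centring. The same region covers the start of the lncRNA gene B130024G19Rik, which shares 1364 bp with Nr2f2 on the opposite strand. Within the Nr2f2 start window printed above, controls covered 300, 239, 192 and 289 of the 300 bases and transgenic libraries 200, 198, 0 and 189. The window was thus covered whole in 1 library, in part in 6, and not at all in transgenic replicate 3.

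The BCL11 genes had a broad domain at the start and many small regions along the gene. Bcl11a had 16 regions, 5 of them in all 8 libraries, and Bcl11b had 22, of which 6 were in all 8. The widest Bcl11a region, chr11:24073281-24084185, was covered over 10672, 10401, 10635 and 10747 bp in controls and over 10349, 10189, 10520 and 10452 bp in transgenic libraries. The transgenic values were the lower ones on the whole, but control replicate 2 lay below transgenic replicates 3 and 4, so the groups overlapped. The means were 10378 ± 144 and 10614 ± 149 bp (SD, n = 4 each), with an exact two-sided permutation p of 0.0857. The centred log2 difference was -0.137 (SE 0.026) with an adjusted p of 0.0511 in limma, just outside the threshold. It passed without control replicate 4 (adjusted p 0.016) and when regions seen in 1 library were also tested, and without centring it was -0.032 with an adjusted p of 0.674. With gaps of up to 500 bp merged it was -0.068 (adjusted p 0.719), and under ordinary variance the adjusted p was 0.915, both in limma. Of the bases in this domain, 90.6% were covered in all 8 libraries, the highest share among the 9 genes. A830031A19Rik, a noncoding gene that ends 70 bp from Bcl11a, has 3214 bp in it.

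Outside that domain the Bcl11a regions held 2745, 5475, 5040 and 6112 bp in controls and 4717, 5654, 4391 and 7946 bp in transgenic libraries. Their coefficient of variation was 28.4%, against 1.77% for the domain itself. For Bcl11b it was 28.6% outside and 5.81% inside its widest region, chr12:107996187-108004663, the latter close to the median of 5.94% among broad regions of coding genes. That Bcl11b region held 7226, 6901, 7311 and 7072 bp in controls and 7319, 7900, 7006 and 8098 bp in transgenic libraries. The 3 highest values were transgenic, but transgenic replicate 3 lay among the controls. Over all its regions, Bcl11b was covered over 11142, 14791, 13968 and 16900 bp in controls and over 15292, 18825, 14248 and 18733 bp in transgenic libraries. These groups overlapped, and the log2 difference was 0.204 (SE 0.113, adjusted p 0.963 in limma). It was 0.12 without control replicate 1, 0.077 with equal numbers of top peaks and -0.026 with quantile normalization. A small region deep in Bcl11b, chr12:107969652-107970362, held 321, 367, 0 and 213 bp in controls and 386, 370, 508 and 711 bp in transgenic libraries. Every transgenic value was above every control value there, as in 3.26% of all regions tested, and the adjusted p was 0.702 in limma at a log2 difference of 0.943 (SE 0.561). This region was also picked out after its values were seen.

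Zbtb18, a BTB zinc finger repressor, had a domain over most of its gene. The widest region, chr1:177442409-177450812, taken over all libraries, took in 99.3% of the gene; in 5 of 8 libraries it began 467 bp or more beyond the uncovered start window. It held 7568, 7551, 7562 and 7788 bp in controls and 7507, 7614, 8061 and 8404 bp in transgenic libraries, with overlapping groups. Control replicates 1 to 3 lay between 7551 and 7568 bp, and the widest coverage was that of transgenic replicate 4. The last covered base lay between 177450318 and 177450812 over the 8 libraries, and no test was made of these edges. With the 5 smaller regions around the domain, Zbtb18 was covered over 9118, 8446, 8233 and 9099 bp in controls and over 9157, 9275, 9538 and 10059 bp in transgenic libraries. All 4 transgenic totals were above all 4 controls, though the lowest transgenic total was close to the highest control. The means were 9507 ± 401 and 8724 ± 452 bp (SD, n = 4 each), a difference of 783 bp with an exact two-sided permutation p of 0.02857. The fit across all genes gave a log2 difference of 0.083 (SE 0.057) with an adjusted p of 0.9998 in limma. With equal numbers of top peaks per library the difference was 404.5 bp and the exact permutation p 0.4. Transgenic libraries also covered more of the genome as a whole, and the part of that in the Zbtb18 difference was not tested.

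Tbr1, the T-box factor, had its start inside its widest region, chr2:61802479-61809904. Controls covered 5706, 5760, 6675 and 7426 bp of it and transgenic libraries 6258, 6548, 6753 and 6859 bp. Controls again held both ends of the range, and the log2 difference was -0.051 (SE 0.051, adjusted p 0.845 in limma). Control replicate 4 covered the region as 1 unbroken peak and control replicate 1 as 5 peaks. Over all 6 regions the totals ran from 6296 to 10113 bp in controls and from 6853 to 9089 bp in transgenic libraries. The coding gene Psmd14, a proteasome subunit gene, ends 2103 bp from the region.

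**Figure D4:**
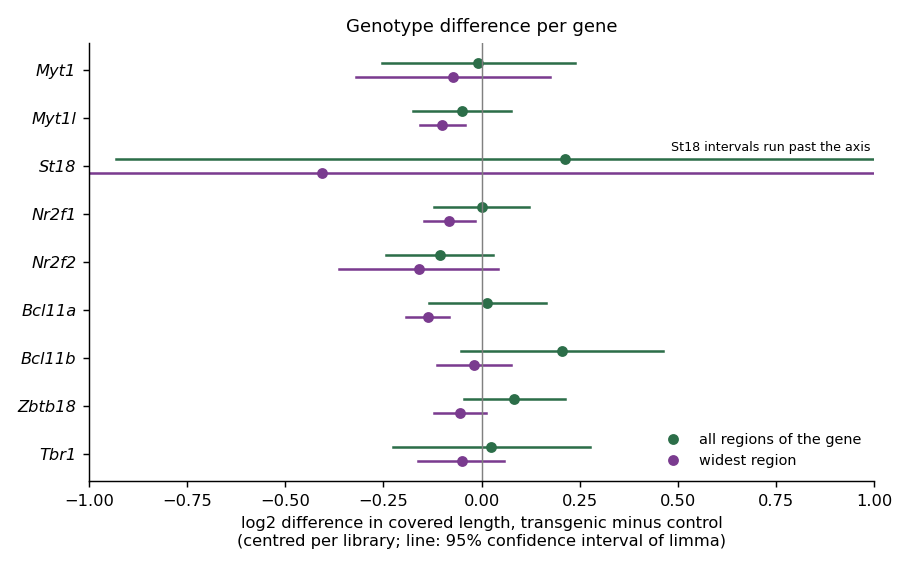
Log2 difference in covered length, transgenic minus control, centred per library, for all regions of a gene (green) and for its widest region (purple), with 95% confidence intervals of limma. The widest region of Bcl11a lies at -0.137 with an adjusted p of 0.0511, no gene passed the threshold, and the intervals of St18 run past the axis.

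The edges of the widest regions varied between libraries with no common side. Such an edge need not be where the mark ends, since a further region can follow closely. The widest region of Bcl11b ended at 108004663, at the gene start, and another region with peaks in all 8 libraries began at 108004722. Inside Bcl11a the widest region ended at 24084185, and the next, also in all 8 libraries, began at 24084248. For Bcl11b the edge inside the gene had a standard deviation of 421 bp over 8 libraries and the edge at the start 63.7 bp. For Nr2f2 these were 284 bp at the far edge and 68.1 bp at the edge nearer the start. Bcl11a went the other way, with 158 bp at the upstream edge and 78.9 bp inside the gene. Zbtb18, at 226 bp near the start and 156 bp at the far end, did so too. Myt1l had 91.6 bp upstream and 160 bp inside the gene, Tbr1 155 and 228 bp, Nr2f1 182 bp upstream and 113 bp at the far edge, and Myt1 121 and 118 bp. The summit of the most enriched peak kept its place in some genes and moved in others. In Zbtb18 it lay between 773 and 886 bp beyond the start in all 8 libraries, and in Tbr1 between 2378 and 2807 bp. In Myt1l it lay anywhere from 89 to 7217 bp beyond the start, and in Nr2f1 at positions from -4547 to 719 bp, counted from the start. For Myt1l, breadth and enrichment did not rank alike: its longest peak was among the 47 longest of its list in every library, while up to 17.8% of the peaks in a list had a higher fold enrichment.

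**Figure D5:**
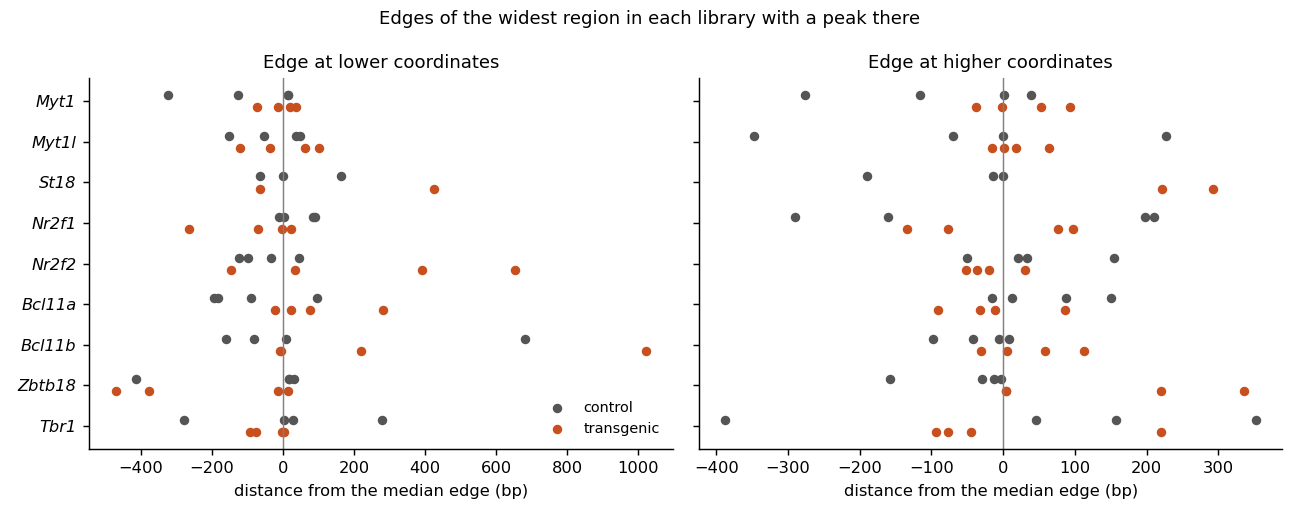
Position of the lower edge (left) and the upper edge (right) of the widest region in each library, in bp from the median edge of that gene, with 1 point per library that has a peak there. The upper edge is the upstream one for Nr2f1, Nr2f2 and Bcl11b, which lie on the minus strand; the lower edge of Bcl11b spreads over 1182 bp and its upper edge over 210 bp.

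The 5 kb limit cut through few regions. The farthest region inside it was 4739 bp from Zbtb18 and held 32.6 bp on average. The nearest outside it was 5205 bp from Nr2f2 and held 720 bp, in all 8 libraries, so that Nr2f2 has another region next to the limit. For Bcl11b and Nr2f1 the nearest outside were 5733 and 5996 bp away, with 50.5 and 25 bp.

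Further lists of genes around the 9 were compared in the same way, as counts beside all genes tested. Of 40 transcription factors of forebrain neurons, 39 had their widest region covered in all 8 libraries, the exception being Eomes. The share of all coding genes with such coverage is not given here, for this list or the next ones. Of the 40, 22 had a widest region of at least 4000 bp, beside 5.31% of all coding genes with a region. None was called, 18 lay above 0 and 22 below, and the median log2 difference was -0.02. In 1 of the 40, Fezf2, a factor of subcortical projection neurons, all transgenic values lay above all controls, as in 3.1% of all genes tested, with means of 7412 ± 78.9 bp in controls and 7703 ± 61.8 bp with the transgene (SD, n = 4 each), with a log2 difference of 0.015 and an adjusted p of 0.9998 in limma. Tcf4, a basic helix-loop-helix factor, was the widest at 30603 bp over all its regions and had the smallest p above 0 (log2 difference 0.081). Pou3f2, a POU-domain factor, had the smallest p below 0 (log2 difference -0.162, adjusted p 0.969 in limma). Eomes was the narrowest at 360 bp.

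The second list held 38 genes of corepressor and remodelling complexes such as SIN3, NuRD, BAF and CoREST, with which several of these factors act, and of the Notch pathway. All 38 had their widest region covered in all 8 libraries, and 3 had one of at least 4000 bp, beside 5.31% of all coding genes with a region. None was called, 20 lay above 0 and 18 below, with a median of 0.002. Dpf1, a subunit of the neuronal BAF complex, had a log2 difference of 0.139, and Rbpj, the DNA-binding factor of Notch signalling, one of -0.103 (adjusted p 0.869 in limma). Sin3b, a subunit of the SIN3 corepressor, was the narrowest at 1377 bp. The third list held 26 close relatives by protein family, of which 25 were tested, since Nr2e3 had no peak. None of the 25 was called, 9 lay above 0 and 16 below, with a median of -0.031, and 21 had their widest region covered in all 8 libraries. Of the 26, 5 had a widest region of at least 4000 bp, again beside 5.31% of all coding genes with a region. Zbtb20, which stands in 2 of the lists and is related to Zbtb18, was the widest at 14972 bp, and Tbx20, a T-box gene best known from the heart, the narrowest at 226 bp with 4 libraries at 0. Tbx20 also had the smallest p below 0, at a log2 difference of -1.216 (SE 0.823, adjusted p 0.9998 in limma), which was 0.029 at a −log10 q of at least 5. Rxrg, a retinoid receptor gene, had the smallest p above 0, at a log2 difference of 0.095.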

How the data were processed

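The submitters' processing notes name mm10, the peak caller MACS2, Bowtie2 2.0.2, deepTools 3.0.1, limma, DiffBind, SAMtools 1.3.1 and FastQC 0.11.5. What each tool did, and with which settings, is not given in the sources used here. The authors deposited 1 peak list per library, with no header. Beside its position, a deposited peak carries the fold enrichment of its summit, a score in whole numbers, and a p-value and q-value, each as −log10. The smallest −log10 q-values deposited were 1.31 to 1.42. The score served to pick equal numbers of top peaks (51903 per library), the −log10 q-value for a stricter threshold, and the fold enrichment, the authors' own value, only to order the peaks of 1 list. The lists hold no read counts, so depth is unknown, and a deeper library gives more and wider peaks.

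Merging overlapping peaks within a library joined none, and no 2 lists were identical. Their union gave 137922 regions, of which 72683 were in at least 2 libraries. Gene positions, strands and promoter windows came from RefSeq tables of GRCm38.p6; exons and untranslated regions were not used. Covered length, as log2(bp + 100), was centred on each library's median over features covered in all 8 and fitted with limma 3.58.1 (R 4.3.3, robust, trended variance) for 17110 coding genes and 72683 regions covered in at least 2 libraries, and p-values were adjusted by Benjamini-Hochberg, with a threshold of 0.05. Fold changes on this scale understate thinly covered features. On simulated data for 17110 genes the fit recovered 62 of 100 genes changed 1.5-fold and 92 of 100 changed 3-fold, with 8 false calls. The changed genes were drawn only from the more broadly covered ones, and no shift common to a library was simulated. Recovery of smaller changes or of thinly covered genes was not measured. Single genes were also compared by an exact two-sided permutation test over 70 assignments, without adjustment over the 9 genes. Descriptions used Python 3.11.15, numpy 2.4.6 and pandas 2.3.3.

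The 9 genes and the lists were chosen with earlier results of these data known. The genes named are the 9, noncoding genes within 5 kb of a widest region, the coding gene closest in breadth to each, and in each list the widest, the narrowest and the smallest-p gene in each direction; the Nr2f2 start region, the small Bcl11b region, the nearby coding gene Psmd14, Fezf2 and the 4 other flanked windows were added after their values were seen. The closest gene to Nr2f1 and the widest gene of 1 list are not reported here. Alternatives changed the pseudocount, centring, filter, variance, peak threshold, merging gap, gene distance, replicate block and library set.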

Additional observations from a re-analysis of the deposited data

Results flagged for a closer look

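Among 52 groups of 4 values examined, 3 had a value whose gap to its neighbour took up more of the group's range than Dixon's 95% limit of 0.829 allows. Chance flags about 1 in 20 groups. In the widest region of Nr2f2, control replicate 1 was covered over 6108 bp and the other controls over 6842 to 6939 bp. In the widest region of Zbtb18, control replicate 4 was covered over 7788 bp and the other controls over 7551 to 7568 bp. The distance from first to last covered base of the same Zbtb18 region was 7853 bp in control replicate 4 and 7551 to 7568 bp in the other controls, so both Zbtb18 values come from the same peaks.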

How the results depend on the processing

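None of the 9 genes passed the gene test under any of 19 alternatives. The number of genes called was 0, with 3 under ordinary variance and 0 to 7 with 1 library left out (7 without transgenic replicate 1, 5 without transgenic replicate 4). The number of regions called was 35, against 15 with a pseudocount of 10 bp, 118 without centring, 0 when coverage in at least 4 libraries was required, 871 when 1 library was enough, 296 under ordinary variance, 0 with equal numbers of top peaks, 3 at a −log10 q of at least 5, 16 with gaps of up to 500 bp merged, and 15 to 54 with 1 library left out. With the replicate block 0 genes and 0 regions were called; same-numbered libraries did not deviate together over genes (correlations -0.304, -0.337, -0.371 and -0.0227), no transgenic library correlated best with the control of its own number, and the labels give no pairing.

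With regions in 1 library included, the widest regions of Bcl11a (adjusted p 3.7e-07), Myt1l (7.1e-06) and Nr2f1 (0.0119) passed in limma, and without control replicate 4 those of Bcl11a (0.016) and Myt1l (0.0099) did. The Zbtb18 difference fell to 404.5 bp (exact permutation p 0.4) with equal numbers of top peaks and 581.5 bp (exact permutation p 0.171) at a −log10 q of at least 5, and ran from 599.3 to 914.6 bp (exact permutation p 0.02857 to 0.114) with 1 library left out. The Nr2f2 start region kept its direction in all 19 alternatives. It was picked with all transgenic values below all controls, so leaving out 1 library could not turn the difference before centring. The kept direction is therefore no further support. The cause of these changes was not tested.

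Signs of small log2 differences over whole genes turned as follows. Without centring, Myt1 was 0.032. With quantile normalization, Nr2f1 was -0.204, Bcl11a -0.212, Bcl11b -0.026, Zbtb18 -0.056, Tbr1 -0.064, Tcf4 -0.169, Eomes -0.144, Fezf2 -0.093 and Zbtb20 -0.111. With equal numbers of top peaks, Myt1 was 0.019, St18 -0.558 and Bcl11a -0.046. At the stricter q, St18 was -0.642, Nr2f1 -0.006, Bcl11a -0.035, Fezf2 -0.002, Sin3b -0.01 and Tbx20 0.029. With regions within 1 kb, Myt1 was 0.002 and Eomes -0.243, and with a pseudocount of 10 bp Nr2f1 was -0.001. In widest regions without centring, Myt1 was 0.032, Myt1l 0.005, Nr2f1 0.023, Bcl11b 0.086, Zbtb18 0.05 and Tbr1 0.054. At the stricter q, St18 was 0.08, Bcl11b 0.089 and Tbr1 0.017; with gaps merged, St18 was 0.268 and Bcl11b 0.031; and Bcl11b was 0.0 with a pseudocount of 500 bp and 0.034 with quantile normalization. In base pairs over the gene, Myt1l turned to 137 at the stricter q and Bcl11a to -331.5 with equal numbers of top peaks, and the Bcl11b span averaged 7375 bp at the stricter q.

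With 1 library left out, log2 differences ran from -0.104 to 0.062 for Myt1, -0.264 to 0.489 for St18, -0.038 to 0.03 for Nr2f1, -0.028 to 0.055 for Bcl11a, -0.036 to 0.133 for Tbr1, -0.504 to 0.661 for Eomes, -0.024 to 0.045 for Fezf2 and -0.057 to 0.124 for Sin3b over genes, and from -0.057 to 0.014 for the Bcl11b widest region. In base pairs, differences ran from -85.33 to 132.3 for Myt1, -189.4 to 10.58 for Myt1l, -137.4 to 541.2 for St18, -183.4 to 1065 for Bcl11a and -201.3 to 1071 for Tbr1. Depth is unknown, so limits of detection cannot be given.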
